A study of Mus musculus with 16 samples.

Results

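The 8 genes described here serve cholesterol synthesis and its control. Srebf2 and Insig1 belong to the control of the pathway, and Hmgcs1, Idi1, Fdft1, Sqle, Lss and Cyp51 code for enzymes from its first steps to the sterols. They were taken by name from a table of 55492 genes, and 8 of 8 had a mean of at least 10 normalized counts and entered the tests with 20576 genes in all. None of the 8 codes for a cholesterol uptake receptor, so uptake is described below from a separate list of 10 genes.

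RNA was sequenced from the left ventricles of 16 male C57BL/6 mice aged 8 to 12 weeks. PKM2fl/fl mice carry loxP-flanked Pkm alleles, and global PKM2-/- mice were made from them with CMV-Cre, which removed exon 10 (the exon of the Pkm2 transcript), and were then bred free of Cre. Each genotype had 2 untreated (baseline) hearts, 3 hearts taken 3 days after sham surgery and 3 taken 3 days after myocardial infarction (MI) by permanent ligation of the left anterior descending artery, each from its own mouse. The global deletion reaches all cell types of the ventricle, and no group carries Cre without the deletion, so floxed and deleted hearts are the only contrast of genotype. Libraries held 20623769 to 71855101 reads on genes, of which 16.4% to 46.4% lay on loci related to rRNA. Pkm, counted as a whole gene with both isoforms, had 7779 to 12076 normalized counts in PKM2fl/fl and 10120 to 16113 in PKM2-/- hearts, which cannot check the loss of 1 exon.

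Cells make cholesterol from acetyl-CoA through mevalonate, isoprenoids, squalene and lanosterol. When sterols in the endoplasmic reticulum are scarce, the transcription factor SREBP-2, the product of Srebf2, is carried to the Golgi by SCAP, cleaved, and enters the nucleus, where it binds sterol regulatory elements in the genes of this pathway. INSIG proteins hold SCAP in the endoplasmic reticulum when sterols are plentiful. In the infarcted heart, macrophages also take up large amounts of lipid from dead cells and release cholesterol through ABC transporters.

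Promoter sequence is shown for 4 of the genes because the data compare genes under shared sterol control. RefSeq promoters on GRCm38.p6 (the mm10 assembly to which the reads were aligned) were matched for 6 of 8 genes, those other than Sqle and Fdft1. The 250 bases before the annotated start are printed 5′ to 3′ on the strand of the gene, with capitals for matches, on either strand, to TCACNCCA (a form of the sterol regulatory element) and CCAAT (the box bound by NF-Y, which reads ATTGG on the other strand).
Srebf2 (chr15:82147019-82147268, forward strand): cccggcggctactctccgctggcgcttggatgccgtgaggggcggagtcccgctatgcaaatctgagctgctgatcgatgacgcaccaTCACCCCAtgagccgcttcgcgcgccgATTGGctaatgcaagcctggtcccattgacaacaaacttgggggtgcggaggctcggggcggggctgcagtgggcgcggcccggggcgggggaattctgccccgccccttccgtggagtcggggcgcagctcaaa
Hmgcs1 (chr13:119690101-119690350, forward strand): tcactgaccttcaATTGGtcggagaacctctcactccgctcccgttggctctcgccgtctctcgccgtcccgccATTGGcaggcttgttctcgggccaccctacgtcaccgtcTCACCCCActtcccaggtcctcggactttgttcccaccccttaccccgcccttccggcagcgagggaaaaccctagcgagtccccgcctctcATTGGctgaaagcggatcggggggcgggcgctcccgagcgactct
Insig1 (chr5:28071162-28071411, forward strand): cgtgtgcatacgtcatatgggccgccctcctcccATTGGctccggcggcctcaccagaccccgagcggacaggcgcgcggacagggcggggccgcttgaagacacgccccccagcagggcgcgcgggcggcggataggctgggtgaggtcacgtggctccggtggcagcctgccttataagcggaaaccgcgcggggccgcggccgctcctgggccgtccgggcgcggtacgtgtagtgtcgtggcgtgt
Cyp51 (chr5:4104698-4104947, reverse strand): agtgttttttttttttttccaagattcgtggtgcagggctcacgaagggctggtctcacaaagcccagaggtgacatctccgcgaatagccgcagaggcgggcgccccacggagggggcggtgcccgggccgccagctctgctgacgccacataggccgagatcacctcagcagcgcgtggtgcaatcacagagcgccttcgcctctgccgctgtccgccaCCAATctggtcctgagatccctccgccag

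Srebf2 and Hmgcs1 each held 1 match to TCACNCCA, at 162 to 155 and at 137 to 130 bases before the start, and both read TCACCCCA. These were 2 of the 6 promoters, against 3.67% of the 32851 promoters of the same length. CCAAT was found in 6 of 6, against 33.8% of promoters, with 3 matches in Hmgcs1 and 1 each in Srebf2, Insig1 and Cyp51. The GC box GGGCGG, not in capitals, was also in 6 of 6, against 32.7%. A match of letters is a description and not a bound site. Other forms of the sterol regulatory element were not searched, so a promoter without a match may still hold one.

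The genes fell into 2 ranges of level. Per kb of each gene's canonical transcript, the mean over the 16 libraries was 197 normalized counts for Srebf2, 189 for Hmgcs1, 175 for Fdft1 and 144 for Insig1. It was 53.7 for Cyp51, 42.8 for Sqle, 20.6 for Idi1 and 14.6 for Lss. Insig1 ranged from 110.3 to 200.4 and Cyp51 from 33.0 to 80.5 per kb, so this pair of neighbours did not overlap over the libraries, while each of the other neighbours in the order did. Behind these levels were 15 reads for the lowest value, Idi1 in a PKM2-/- sham heart, up to 2114 reads for Srebf2 in a PKM2-/- MI heart.

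**Figure D1:**
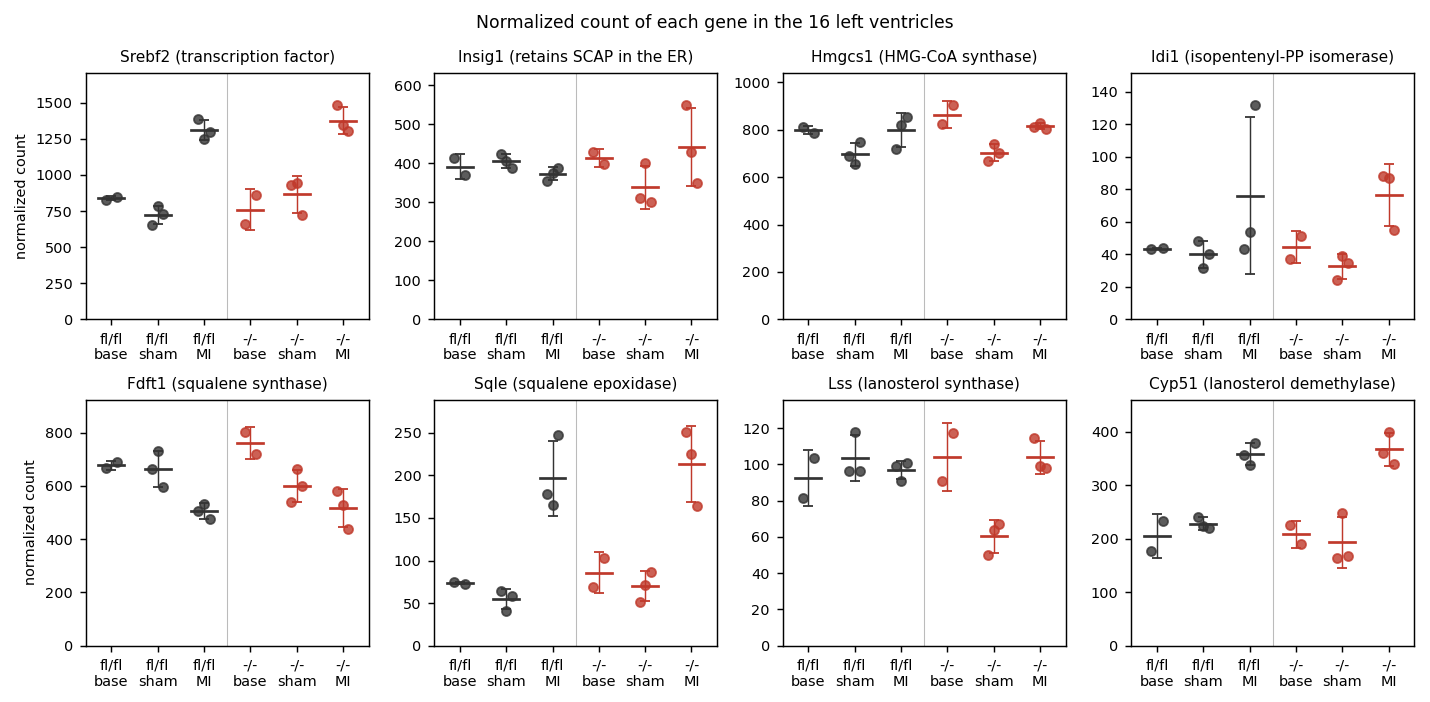
Each panel plots the normalized count (vertical axis, starting at 0) of 1 gene in every library, with a point per heart, a line at the group mean and a bar of ± 1 SD (n = 2 at baseline, n = 3 after sham or MI). Srebf2, Sqle and Cyp51 in the MI hearts lie above all sham hearts of the same genotype, and Lss in the PKM2-/- sham hearts, at 49.8 to 66.9, lies below every other group.

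MI against sham asks how the ventricle differs 3 days after ligation. In PKM2fl/fl hearts 4 of the 8 genes passed the test, with Sqle, Srebf2 and Cyp51 higher and Fdft1 lower (limma, Benjamini-Hochberg adjusted p under 0.05 over all genes tested). The background is high, since 50.1% of all genes passed (24.8% higher, 25.3% lower), so 4 of 8 is near the background share. In PKM2-/- hearts 6 of 8 passed, namely Sqle, Idi1, Cyp51, Lss, Srebf2 and Insig1, and 6 of 6 were higher, where 56.8% of all genes passed and 28.7% passed as higher. With a change of at least 2-fold as well, 1 gene passed in PKM2fl/fl (Sqle, background 23.5%) and 2 in PKM2-/- (Sqle and Idi1, background 28.8%). Over the 8 genes the median log2 fold change was 0.42 in PKM2fl/fl and 0.73 in PKM2-/-, against -0.0025 and 0.01 over all genes tested.

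The makeup of the tissue moved with MI. Summed cardiomyocyte markers (7 of 7 measured) were 765946 to 914478 normalized counts in PKM2fl/fl sham and 153342 to 359888 in PKM2fl/fl MI hearts, and 694176 to 842777 against 161709 to 233130 in PKM2-/-. Summed macrophage and monocyte markers (6 of 6) went from 4613 to 9122 up to 19571 to 34998 in PKM2fl/fl, and from 5980 to 7742 up to 25783 to 30174 in PKM2-/-. Sums of 5 fibroblast markers were 20865 to 38524 and 23399 to 38008 after sham, and 130189 to 140595 and 115187 to 154445 after MI, in PKM2fl/fl and PKM2-/- respectively. These markers did not all move alike. Col1a1, Col3a1, Postn and Pdgfra rose, while Dcn fell by 0.53 and 0.58 on the log2 scale (limma adjusted p = 0.0218 and 0.0126). Sums of 4 markers of proliferating cells were 456 to 924 in all sham hearts and 6350 to 9180 in all MI hearts. Sums of 3 hepatocyte markers stayed between 1.17 and 15.9 in all 16 libraries. The part of this shift in the results for the 8 genes was not tested, and in bulk tissue fewer cells of a type and less RNA per cell cannot be told apart.

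Among the control genes, Srebf2 rose in both genotypes. PKM2fl/fl hearts had normalized counts of 828 and 849 at baseline, 655, 784 and 729.9 after sham, and 1385, 1248 and 1295 after MI. PKM2-/- hearts had 659 and 861 at baseline, 931, 947 and 719.5 after sham, and 1482, 1343 and 1306 after MI. The 6 MI hearts were above the other 10 hearts. MI minus sham was 0.86 on the log2 scale (SE 0.12, n = 3 against 3, limma adjusted p = 4.35e-05) in PKM2fl/fl, or 1.81-fold, and 0.68 (SE 0.12, limma adjusted p = 2.46e-04) in PKM2-/-, or 1.60-fold. With scaling to all reads the PKM2fl/fl value was 0.68 and did not pass (limma adjusted p = 0.0839). That scaling moved the median of all genes by -0.18, so Srebf2 stayed about as far above the median as before. Srebf2 hosts Mir33 in an intron, and the host's count does not measure that microRNA.

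Insig1, which codes for a protein that retains SCAP and is itself a target of SREBP-2, differed little. At baseline, PKM2fl/fl hearts had normalized counts of 414 and 369.5, with 424, 406 and 389 after sham and 356, 376 and 388 after MI. The PKM2-/- values were 430.1 and 398 at baseline, 310.3, 402 and 302 after sham, and 549, 428 and 349 after MI. The PKM2fl/fl MI hearts lay just below the sham hearts with no overlap (388 against 389 at the nearest), and the PKM2-/- MI and sham hearts overlapped. MI minus sham gave a log2 fold change of -0.12 (SE 0.15, limma adjusted p = 0.520) in PKM2fl/fl and 0.37 (SE 0.15, limma adjusted p = 0.0439) in PKM2-/-. The PKM2-/- call was lost in 12 of the 16 fits that left out 1 library of any group, with limma adjusted p from 0.0513 to 0.232, the last without PKM2-/- MI heart 1 (log2 fold change 0.20). It was also lost with no filter on low values (adjusted p = 0.0699) and with limma fitted to the PKM2-/- sham and MI hearts alone (adjusted p = 0.111). The gene lies inside the long noncoding gene Gm35223, so the reads of the pair may be hard to tell apart.

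Among the enzymes, Hmgcs1 and Idi1 act before squalene. Hmgcs1 codes for HMG-CoA synthase, which feeds the mevalonate pathway. Normalized counts in PKM2fl/fl hearts were 810.0 and 787 at baseline, 689.7, 654 and 750.0 after sham, and 717, 822 and 854 after MI. Those in PKM2-/- hearts were 823 and 903 at baseline, 667, 740.5 and 702 after sham, and 814, 828 and 805 after MI. MI and sham hearts overlapped in PKM2fl/fl and not in PKM2-/-, and the MI hearts were near the level of the baseline hearts. The log2 fold change of MI against sham was 0.19 (SE 0.09, limma adjusted p = 0.0960) in PKM2fl/fl and 0.21 (SE 0.09, limma adjusted p = 0.0572) in PKM2-/-. The PKM2-/- value passed under 5 of 28 alternatives, among them scaling to reads outside rRNA-related loci (0.57, adjusted p = 0.00222). That scaling moved the median of all genes by 0.36, so Hmgcs1 stayed about as far above the median as before. The PKM2fl/fl value passed without PKM2fl/fl MI heart 1 (0.27, adjusted p = 0.0305).

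Idi1 codes for the isomerase that makes dimethylallyl diphosphate from isopentenyl diphosphate. In PKM2fl/fl hearts it had normalized counts of 43.2 and 43.8 at baseline, 48.2, 31.8 and 40.2 after sham, and 43.3, 53.6 and 132 after MI. In PKM2-/- hearts it had 37.3 and 51.3 at baseline, 24.1, 39.2 and 34.5 after sham, and 88.4, 87.0 and 54.8 after MI. A single PKM2fl/fl MI heart (replicate 3) stood far above the others of its group. It also had the lowest sum of cardiomyocyte markers (153342) and the highest of macrophage markers (34998) in that group. In the PKM2-/- MI group the hearts high in Idi1 differed in these sums. Replicate 1, highest in Idi1 at 88.4, had the highest cardiomyocyte sum (233130) and the lowest macrophage sum (25783). The heart at 87.0, nearly as high in Idi1, had a cardiomyocyte sum of 168630 and the highest macrophage sum of the group (30174). The heart lowest in Idi1, at 54.8, had sums of 161709 and 29094. The part of these sums in the Idi1 values was not tested. The PKM2-/- MI hearts were all above the sham hearts. The log2 fold change was 0.76 (SE 0.36, limma adjusted p = 0.0930) in PKM2fl/fl and 1.20 (SE 0.36, limma adjusted p = 0.00967) in PKM2-/-. Without PKM2fl/fl MI heart 3 the first value was 0.28 (limma adjusted p = 0.493), and without heart 1 it was 1.07 (limma adjusted p = 0.0277).

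Fdft1 codes for squalene synthase, the first enzyme committed to sterols. It was the only one of the 8 to pass as lower with MI, and only in PKM2fl/fl hearts. For PKM2fl/fl hearts the normalized counts were 666 and 690.0 at baseline, 665, 731 and 598 after sham, and 507, 534 and 476 after MI. For PKM2-/- hearts they were 804 and 720.2 at baseline, 540.2, 662 and 599.8 after sham, and 582, 528 and 440.0 after MI. MI hearts were below sham hearts with no overlap in PKM2fl/fl, and overlapped them in PKM2-/-. Fdft1 fell by 0.39 on the log2 scale (SE 0.12, limma adjusted p = 0.0125) in PKM2fl/fl, and its log2 fold change was -0.22 (SE 0.12, limma adjusted p = 0.125) in PKM2-/-. Without PKM2fl/fl sham heart 2 the first value was -0.32 (limma adjusted p = 0.0627). The value is uncertain, because Fdft1 shares 774 bases with Ctsb on the opposite strand and the strand setting of the counting is not given in the sources used here. Ctsb, which codes for the lysosomal protease cathepsin B, rose by 1.53 (SE 0.12) in PKM2fl/fl and 1.65 (SE 0.12) in PKM2-/- on the log2 scale (limma adjusted p = 2.91e-07 and 1.14e-07), and its part in the Fdft1 value was not tested.

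Sqle codes for squalene epoxidase, a rate-limiting enzyme of the sterol branch, and it had the largest difference of the 8 genes in both genotypes. The normalized counts of PKM2fl/fl hearts were 74.6 and 73.0 at baseline, 64.0, 41.1 and 58.3 after sham, and 178, 165 and 247 after MI. The counts of PKM2-/- hearts were 68.8 and 103 at baseline, 51.4, 71.8 and 86.3 after sham, and 251, 225 and 164 after MI. The lowest MI heart, at 164, was above the highest of the other 10 hearts, at 103. On the log2 scale MI exceeded sham by 1.83 (SE 0.25, limma adjusted p = 2.92e-05) in PKM2fl/fl, or 3.57-fold, and 1.61 (SE 0.25, limma adjusted p = 6.41e-05) in PKM2-/-, or 3.05-fold. Among all genes tested these values stood at the 94.5th and 91.5th percentile.

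Cyp51, the demethylase that acts on lanosterol, rose in both genotypes. PKM2fl/fl hearts held 177 and 234 normalized counts at baseline, 241, 224 and 219.6 after sham, and 357, 339 and 379.5 after MI. PKM2-/- hearts held 226 and 191 at baseline, 164, 248 and 168 after sham, and 361, 400.1 and 340.5 after MI. The 6 MI hearts were above the other 10 hearts. Its log2 fold change was 0.65 (SE 0.16, limma adjusted p = 0.00337) in PKM2fl/fl, or 1.57-fold, and 0.94 (SE 0.16, limma adjusted p = 1.32e-04) in PKM2-/-, or 1.92-fold. With scaling to all reads the PKM2fl/fl value was 0.47 and did not pass (limma adjusted p = 0.276). The median of all genes moved by -0.18 under it, so Cyp51 too stayed about as far above the median.

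Lss, which codes for the enzyme that closes squalene epoxide into lanosterol, rose with MI in PKM2-/- hearts from a low sham level. Its normalized counts in PKM2fl/fl were 81.6 and 103 at baseline, 96.4, 118 and 96.1 after sham, and 98.9, 91.1 and 101 after MI. In PKM2-/- hearts they were 90.9 and 117 at baseline, 49.8, 64.0 and 66.9 after sham, and 114, 99.1 and 98.1 after MI. The 3 PKM2-/- sham hearts were below all other 13 hearts, and the other 5 groups overlapped. The log2 fold change of MI against sham was -0.09 (SE 0.18, limma adjusted p = 0.709) in PKM2fl/fl and 0.78 (SE 0.18, limma adjusted p = 0.00175) in PKM2-/-.

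**Figure D2:**
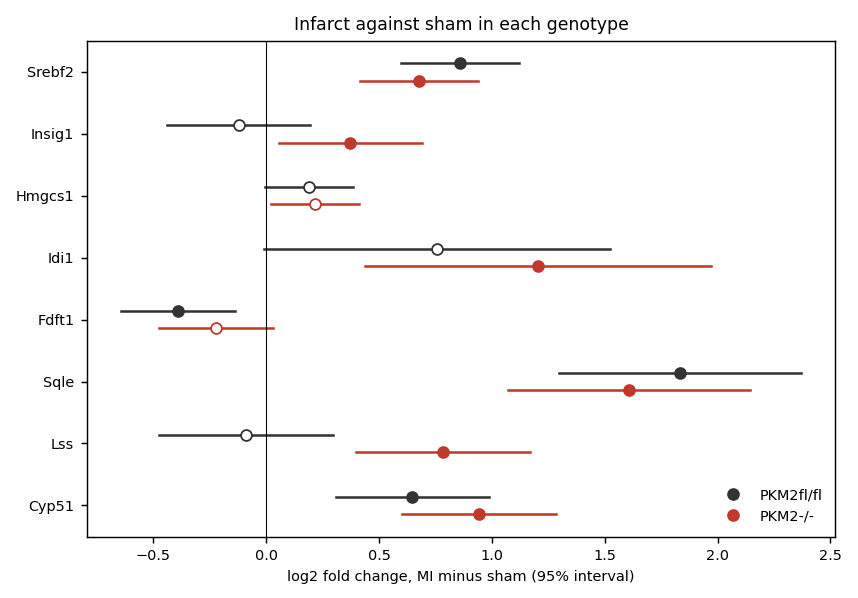
Points give the log2 fold change of MI against sham (horizontal axis) for the 8 genes (rows) in PKM2fl/fl (black) and PKM2-/- hearts (red), with 95% intervals from limma; filled points passed an adjusted p of 0.05. Sqle is farthest to the right in both genotypes, at 1.83 and 1.61, and the intervals of the genotypes overlap for Sqle, Srebf2, Cyp51, Idi1, Hmgcs1, Fdft1 and Insig1 but not for Lss.

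The groups of MI and sham hearts did not overlap for 5 of 8 genes in PKM2fl/fl (3 higher, 2 lower), against 59.0% of all genes, and for 6 of 8 in PKM2-/- (6 higher), against 62.3%. An exact permutation test of 3 hearts against 3 cannot give a p below 0.1, which is what such genes have.

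**Figure D3:**
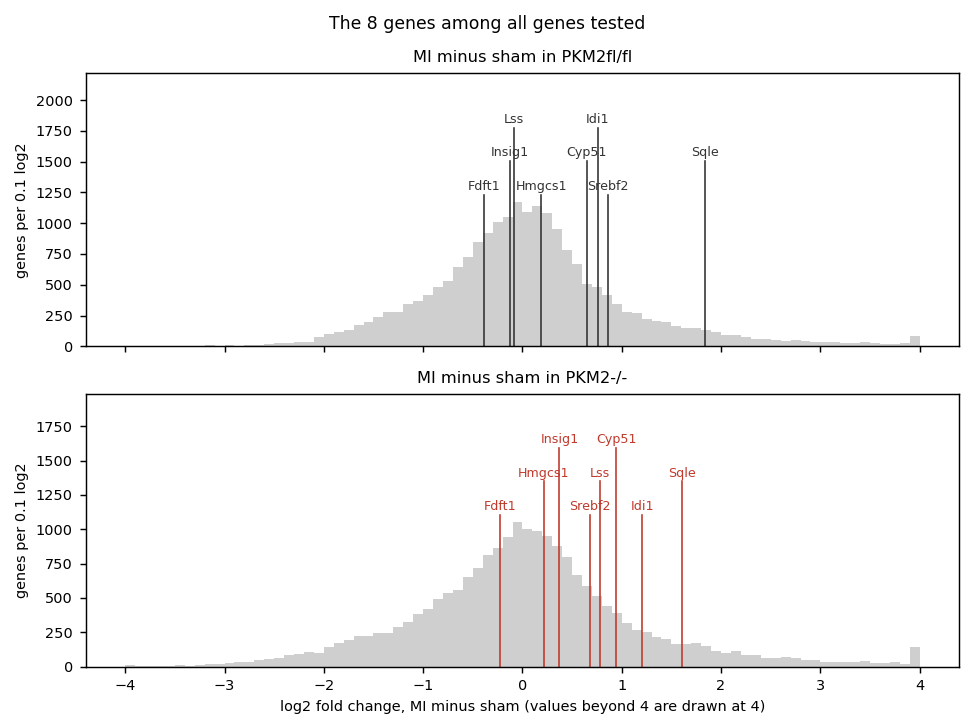
Grey bars count all 20576 genes tested by log2 fold change of MI against sham (0.1 wide; values beyond 4 are drawn at 4), in PKM2fl/fl (top) and PKM2-/- hearts (bottom), and lines mark the 8 genes. In both panels most of the 8 lie within the body of the distribution, and Sqle lies toward its upper end.

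Genotype was compared next, in hearts of the same treatment. None of the 8 genes passed the test at baseline (0.00972% of all genes did), after sham (0.00972%), after MI (0.967%) or averaged over the 3 treatments (0.102%), all by limma. At an unadjusted p under 0.05, 0 of 8 passed at baseline, 1 after sham (Lss), 0 after MI and 0 on average, where 3.64%, 9.95%, 17.0% and 11.4% of all genes did. DESeq2 on the recovered reads called 1 of 8 after sham, again Lss, and edgeR called 0. After MI the log2 difference of PKM2-/- minus PKM2fl/fl lay between 0.02 and 0.22 for the 8 genes, with 95% intervals that reached from -0.61 to 0.92 at the widest, so a difference of nearly 2-fold is within reach of the interval of the least precise gene. At baseline 2 of 8 genes (Hmgcs1 and Fdft1) were higher in PKM2-/- hearts with no overlap, against 34.9% of all genes in either direction. Reads on rRNA-related loci also differed in their share, at 17.7% to 22.5% in PKM2fl/fl and 40.0% to 44.1% in PKM2-/- baseline hearts, 16.5% to 28.4% and 29.0% to 46.4% after sham, and 20.3% to 45.3% and 16.4% to 34.7% after MI. After MI, summed neutrophil markers were 1102 to 1952 in PKM2fl/fl and 3143 to 3999 in PKM2-/- hearts, though none of the 4 markers passed alone. Sums of 4 atrial markers were 9080 to 10179 and 10194 to 11652. The cardiomyocyte, fibroblast and macrophage sums given above overlapped between the genotypes after MI. The part of the rRNA share and of these sums in the genotype values was not tested.

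Between the genotypes after sham, 9.95% of all genes had an unadjusted p under 0.05, so 1 of 8 is near the background share. Among the 8, that gene was Lss. The mean was 60.2 ± 9.12 normalized counts in PKM2-/- and 103 ± 12.6 in PKM2fl/fl sham hearts (SD, n = 3 each), a log2 difference of -0.78 (SE 0.18, 95% interval -1.16 to -0.39), and the values did not overlap, as for 16.5% of all genes. The unadjusted p was 6.52e-04 and the Benjamini-Hochberg adjusted p 0.130 by limma, so the difference did not pass, and by DESeq2 the adjusted p was 0.0404. At baseline the log2 difference was 0.17 (SE 0.22) and after MI 0.10 (SE 0.18). Within PKM2-/- hearts Lss was also lower after sham than at baseline (log2 fold change -0.78, SE 0.20, limma adjusted p = 0.0377), and it was the only one of the 8 to pass there, where 5.14% of all genes did. That call was lost without either PKM2-/- baseline heart, without PKM2-/- sham heart 1 or 2, and without PKM2fl/fl sham heart 1 or PKM2-/- MI heart 2, with adjusted p from 0.0512 to 0.282. From baseline to sham in PKM2-/- hearts, summed markers also moved, with neutrophil sums of 114 to 159.7 and then 897 to 1146, fibroblast sums of 14875 to 16964 and then 23399 to 38008, and sums for proliferating cells of 88.0 to 212 and then 481 to 799. Their part in the Lss value was not tested. The 2 contrasts and that of MI against sham share the PKM2-/- sham hearts, whose Lss values rest on 31, 49 and 62 reads.

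Lss shares 11269 bases with 4930483K19Rik, and reads of overlapping genes may be hard to assign. That gene was chosen for its overlap after its values were seen. It had 35.4 to 47.5 normalized counts in PKM2-/- sham and 59.3 to 65.7 in PKM2fl/fl sham hearts, a log2 difference of -0.63 (SE 0.22). In PKM2-/- hearts its log2 fold change was -0.60 (SE 0.25) for sham against baseline and 0.48 (SE 0.22) for MI against sham. In PKM2fl/fl hearts MI against sham gave 0.0021 (SE 0.22). None of these values passed the test. The part of 4930483K19Rik in the Lss values was not tested.

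Whether the response to MI differs between the genotypes was tested by an interaction term. No gene of the 20576 passed in limma (1703, or 8.28%, had an unadjusted p under 0.05), so 0 of 8 did. The difference of log2 fold changes, PKM2-/- minus PKM2fl/fl, was 0.87 for Lss (SE 0.26, 95% interval 0.33 to 1.42, limma adjusted p = 0.430) and 0.50 for Insig1 (SE 0.21, interval 0.05 to 0.94, limma adjusted p = 0.572), and these were the 2 with an unadjusted p under 0.05. For Sqle it was -0.23 (SE 0.36, interval -0.98 to 0.53) and for Srebf2 -0.18 (SE 0.17, interval -0.55 to 0.19). Sqle and Srebf2 were thus not shown to respond differently, though the interval for Sqle still allows a difference of nearly 2-fold. In the comparison of sham against baseline, 0 of 8 passed in PKM2fl/fl hearts (0.190% of all genes), where the log2 fold changes ran from -0.45 to 0.17. No gene passed in the interaction of genotype with sham against baseline (6.29% of all genes had an unadjusted p under 0.05).

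The wider pathway was read from lists of genes that include the 8. Of 22 genes of cholesterol synthesis, 10 rose and 3 fell with MI in PKM2fl/fl hearts, and 14 rose and 1 fell in PKM2-/-. Of all genes tested, 24.8% rose and 25.3% fell in PKM2fl/fl, and 28.7% rose and 28.1% fell in PKM2-/-. The median log2 fold change was 0.32 in PKM2fl/fl and 0.66 in PKM2-/-. Msmo1, a sterol demethylase that acts after Cyp51, rose by 0.92 and 0.98 on the log2 scale in PKM2fl/fl and PKM2-/- (SE 0.16 each), and Mvd, which makes isopentenyl diphosphate, by 0.69 and 1.19 (SE 0.19 each). Hsd17b7, a reductase of the same stretch of the pathway, fell, with log2 fold changes of -0.71 and -1.14 (SE 0.21 each).

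Of 9 genes of SREBP control, 1 rose (Srebf2) and 3 fell with MI in PKM2fl/fl hearts, and 4 rose and 3 fell in PKM2-/-, with medians of -0.02 and 0.15. Since 50.1% and 56.8% of all genes passed, 4 of 9 in PKM2fl/fl is near the background share. Insig2, the paralogue of Insig1, fell, with log2 fold changes of -0.70 and -0.74 (SE 0.11 each, limma adjusted p = 6.58e-05 and 2.80e-05), and Rnf139, a ubiquitin ligase of the endoplasmic reticulum, fell too, at -0.48 and -0.53 (SE 0.09 each). Both were lower in each genotype while Srebf2 was higher. Scaling to all reads left Rnf139 at -0.02 in PKM2-/- (adjusted p = 0.961) and Insig2 at -0.23 (adjusted p = 0.554), but that scaling moved the median of all genes by 0.52, so both stayed as far below the median as before.

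Of 10 genes of uptake and lysosomal release, 7 rose and 1 fell in PKM2fl/fl, and 7 rose and 2 fell in PKM2-/-, with medians of 0.52 and 0.47, where 24.8% and 28.7% of all genes rose. Lipa, the lysosomal acid lipase that frees cholesterol from its esters, rose by 1.47 and 1.32 on the log2 scale (SE 0.12 each), and Npc2, which hands the freed cholesterol on, by 0.92 and 1.19 (SE 0.13 each). Vldlr, a lipoprotein receptor of heart and muscle, fell, with log2 fold changes of -1.84 and -2.32 (SE 0.21 each, limma adjusted p = 6.17e-06 and 5.33e-07).

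Of 9 genes of efflux, oxysterols and storage, 5 rose and 3 fell in each genotype, with medians of 0.86 and 0.96, where 50.1% and 56.8% of all genes passed and 24.8% and 28.7% rose. Soat1, which esterifies cholesterol for storage, rose by 2.61 and 2.67 (SE 0.17 each), Ch25h, which makes 25-hydroxycholesterol in activated macrophages, by 3.21 and 2.73 (SE 0.38 each), and the exporter Abcg1 by 1.49 and 1.39 (SE 0.14 each). Cyp27a1, which makes 27-hydroxycholesterol, fell, at -0.93 and -1.39 (SE 0.25 each). These genes moved beside the rise in macrophage markers given above, and the part of that rise was not tested. In genotype contrasts only Nceh1, which hydrolyses cholesterol esters, passed among these lists. It was lower in PKM2-/- hearts on average (log2 difference -1.20, SE 0.19, limma adjusted p = 0.0439), with 659 to 3052 normalized counts in 8 PKM2-/- hearts and 1972 to 4976 in 8 PKM2fl/fl hearts and no overlap within a treatment, and the call was lost when any of 14 libraries was left out.

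The 8 genes did not all vary together. Over the 16 libraries, which share group, depth and tissue makeup, the 28 pairs had Pearson correlations of log2 values from -0.76 (Srebf2 and Fdft1) to 0.87 (Sqle and Srebf2), with a median of 0.38. After each group's mean was taken away, the median was 0.27, and only 4 of 28 pairs were above 0.5. The highest were Sqle with Idi1 (0.82), Insig1 with Fdft1 (0.74), Hmgcs1 with Idi1 (0.71) and Hmgcs1 with Sqle (0.60). Sqle and Srebf2 fell to -0.08, so their likeness lies between the groups.

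**Figure D4:**
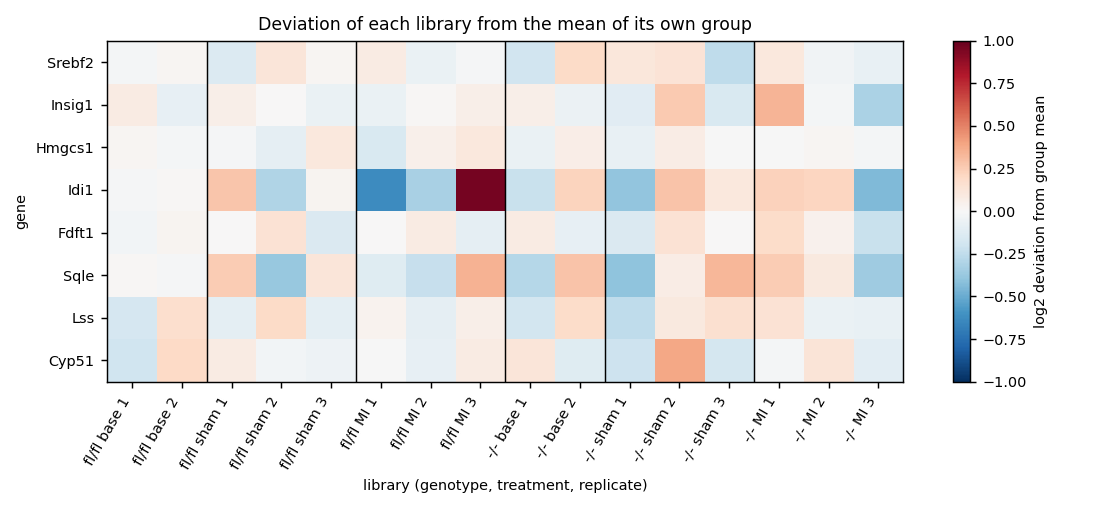
Colour gives the log2 deviation of each gene (rows) in each library (columns; replicate number last) from the mean of its own group, from -1 (blue) to 1 (red), with black lines between groups. Idi1 is most uneven within groups and is highest in PKM2fl/fl MI heart 3, at 132 normalized counts against 43.3 and 53.6 in the others of the group.

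Over the 16 libraries, the genes outside the lists most like the mean of the 8 genes' z-scores were Prmt3 (r = 0.95), Lipc (0.92), Rgs1, Cdyl and Ankrd28 (each 0.90). Prmt3, an arginine methyltransferase, rose with MI by 0.36 (SE 0.11) and 0.76 (SE 0.11) on the log2 scale in PKM2fl/fl and PKM2-/- (limma adjusted p = 0.0118 and 2.48e-05). It was picked by its correlation over the same libraries, so these values are not a separate test. In deviations from group means, Tlk2 (0.95), Gm6104 (0.94), Gm15934 (0.90) and Gm9889 (0.90) were among the 5 most alike, and none of these 4 is among the first 5. These correlations describe 16 libraries and were drawn from all genes tested.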

How the data were processed

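Left ventricle RNA was extracted (RNeasy), depleted of rRNA, made into libraries with the NEBNext Ultra II RNA kit and sequenced as paired ends on a NextSeq 550. Per the paper's methods and the submitters' processing notes, the authors used PRINSEQ for trimming, HISAT2 for alignment to mm10, featureCounts for reads per gene and DESeq2 for normalization (versions, strand and multi-mapping settings are not given in the sources used here). The authors deposited, for each gene and library, a signal (reads divided by the DESeq2 size factor, called the normalized count here) and its mean. The deposited log2 fold change with its error, test score and p-value for genotype at baseline, raw and adjusted, are the authors' own and were not used.

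Every deposited value was a whole multiple of 1 read's worth (100% within 0.02), so reads were recovered. No 2 libraries agreed within sampling noise. limma 3.58.1 (R 4.3.3) with trend was fitted to log2(normalized count + 1) of all 16 libraries in 6 groups, for genes with a mean of at least 10, with Benjamini-Hochberg adjustment over 20576 genes; fold changes are on that scale and understate those of low genes. A gene passed at an adjusted p under 0.05. The groups come from the sample labels. The labels' replicate numbers were checked as pairs: deviations of 36 same-numbered pairs of libraries correlated at -0.20 to 0.13 (median -0.03), so they were not used as pairs. Exact permutation tests are two-sided. Promoters are RefSeq's on GRCm38.p6, and transcript lengths are those of the canonical transcripts of GENCODE release M39. The fit was tested on simulated data.

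The alternatives were TMM factors, scaling to all reads or to reads outside rRNA-related loci, DESeq2 1.42.0 and edgeR 4.0.16 on recovered reads, other filters and pseudocounts (0.1 and 10), the compared groups alone, a replicate block, sample weights, and each library left out. The 8 genes and the lists were chosen with earlier results of these data known. All 8 were named. Genes of the lists could be named if they passed in MI against sham or in a genotype contrast, as could the 5 genes most like the 8 by either correlation. Some of these are not reported here, and counts over a list cover every gene in it.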

Additional observations from a re-analysis of the deposited data

How the results depend on the processing

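Of 504 recomputed counts, 480 stayed within 1.5 times the reported one. Scaling to all reads left 1 of the 8 genes called in PKM2fl/fl MI against sham, 4 of the 22 synthesis genes, 1 of 9 SREBP control genes, 4 of 10 uptake genes and 5 of 9 efflux genes, and 4 of 9 SREBP control genes in PKM2-/-; under it the median of all genes shifted by -0.18 in PKM2fl/fl and 0.52 in PKM2-/-. Scaling to reads outside rRNA-related loci left 2 of 9 SREBP control genes in PKM2fl/fl, and 4 of 9 passed in PKM2-/- with no filter on low values or with the compared groups alone. With a library left out these counts ranged from 3 to 6 of the 8 genes in PKM2fl/fl and from 3 to 7 of the SREBP control genes in PKM2-/-. After sham, DESeq2 called 1 of 8 between the genotypes. In PKM2-/- sham against baseline the call of Lss went to 0 of 8 under scaling to all reads, scaling outside rRNA-related loci, edgeR, no filter, the compared groups alone and the replicate block (-0.78, adjusted p = 0.0554), and ranged from 0 to 1 with a library left out. The block changed no other reported call. Among the fold changes of MI against sham, those that turned sign, none of which had passed, were Insig1 (0.0033) and Lss (0.036) in PKM2fl/fl outside rRNA-related loci, Lss there with a library left out (-0.14 to 0.0084), and Fdft1 in PKM2-/- under scaling to all reads (0.29) and outside rRNA-related loci (0.13). Relative to the shifted medians (0.52 and 0.36), Fdft1 was still lower. Over 60 fold changes of the 8 genes in the other comparisons, none of which had passed, 79 of 1680 recomputed values turned sign and 0 passed. Of 1930 recomputed single values, 1827 kept direction and side of the threshold. Sqle stayed called in both genotypes under all 28 alternatives (1.65 to 1.96 and 1.41 to 2.12). Idi1 in PKM2fl/fl passed with DESeq2 and edgeR (adjusted p = 0.0394 in each). With 2 or 3 hearts a group and 15 to 144 reads for Idi1, small differences were not detectable.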
